A study of Mus musculus with 6 samples.

Results

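Heat shock genes encode chaperones, proteins that help other proteins fold and that hold or rescue proteins that have unfolded. Counts of 10 mouse heat shock genes, Hspa1a, Hspa1b, Hspa8, Hsph1, Hsp90aa1, Dnajb1, Hspb1, Hspd1, Hspe1 and Bag3, were taken by symbol from the reverse-strand counts of 6 liver libraries, which list 24411 gene symbols. They belong to the cytosolic and mitochondrial heat shock families, and the rule uses symbols and no measured value. The genes were nevertheless chosen with earlier results of these data known. All 10 passed the filter on low counts, as did 13563 genes in all.

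The study compared bulk RNA sequencing of livers labelled Control with livers labelled Cyr61 KO, with 3 libraries in each group. Cyr61, also named Ccn1, encodes a secreted protein of the extracellular matrix, and the series title places the comparison in fibrosis of non-alcoholic steatohepatitis (NASH), a fatty liver disease with inflammation. Per the labels, all mice of both groups were male, 24 weeks old, of the strain Cyr61fl/fl (floxed Cyr61 alleles), and had been fed a NASH diet for 12 weeks. The labels do not give the means or the cells by which Cyr61 was removed, nor the part of the gene removed. Whether the libraries stem from separate mice is also not stated, and the p-values here measure the spread between these libraries.

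As background, the transcription factor HSF1 is held inactive by chaperones in unstressed cells. When unfolded proteins occupy those chaperones, HSF1 forms trimers and binds heat shock elements, runs of the unit GAA in alternating orientation, upstream of its target genes. Hspa1a and Hspa1b are the classical inducible targets, whereas Hspa8 and Hspd1 serve protein folding in the unstressed cell as well. In the liver the inducible genes are known to respond to heat and to toxins.

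Stretches before the start sites are printed for Hspa1a and Hspa1b, to show their near-identity, and for the mitochondrial pair Hspd1 and Hspe1, to show the heat shock elements between them. They come from RefSeq on GRCm38.p6, 5′ to 3′ on the strand of the gene (for the pair, that of Hspe1), and capitals mark the 2-unit element GAANNTTC or TTCNNGAA. Hspa1a lies on the minus strand at chr17:34972157-34972306, Hspa1b on the minus strand at chr17:34959239-34959388, and the segment between Hspd1 and Hspe1 on the plus strand at chr1:55088053-55088082.
Hspa1a: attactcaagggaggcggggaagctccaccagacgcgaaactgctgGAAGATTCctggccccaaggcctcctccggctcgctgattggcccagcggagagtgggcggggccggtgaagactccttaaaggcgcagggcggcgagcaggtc
Hspa1b: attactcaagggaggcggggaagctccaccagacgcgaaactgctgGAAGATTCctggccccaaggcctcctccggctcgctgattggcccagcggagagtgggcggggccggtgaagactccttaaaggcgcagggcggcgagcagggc
Hspd1 and Hspe1: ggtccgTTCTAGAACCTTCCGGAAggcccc

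RefSeq windows from 250 bases before to 50 after a start site were matched for 8 of the 10 genes, in 11 windows; Hspa8 and Hsp90aa1 had none. Both strands were searched, and each 3-unit match (GAANNTTCNNGAA or TTCNNGAANNTTC) also holds 2-unit matches. The 2-unit element was in the windows of 7 genes, all but Dnajb1, whereas 15.1% of 32851 windows of all genes hold it. The 3-unit element was in those of 3 genes, Hspd1, Hspe1 and Hsph1, against 0.603% of all windows. In Hspa1a and Hspa1b the element began 104 bases before the start and a CCAAT box (CCAAT or ATTGG, in 37.4% of all windows) 67 bases before it, and the 300-base windows of these genes differed at 4 positions. The RefSeq starts of Hspd1 and Hspe1 lie 215 bases apart on opposite strands, and the overlapping elements between them began 89, 84 and 79 bases before the start of Hspe1. In Hspb1 elements began 117 and 97 bases before the start, and in Bag3 the only match began 42 bases after it. A match describes letters in the window and does not show binding.

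The libraries held 21032878 to 40377742 gene counts. The targeted gene Cyr61 read 15.6, 32.4 and 27.8 CPM (gene counts relative to the library's total, scaled by edgeR's TMM factors) in the control libraries and 3.77, 2.66 and 3.14 CPM in the Cyr61 KO libraries, a log2 fold change of -2.98 (SE 0.32, adjusted p = 0.0103 by edgeR's quasi-likelihood test with Benjamini-Hochberg adjustment, used throughout). The hepatocyte marker Alb was at 66177 to 90103 CPM in 5 libraries and at 23799 CPM in control 2. Control 2 stood apart: 50.9% of its reads fell in genes, against 82.8% to 87.6% elsewhere, 19.4% mapped to several places, against 3.74% to 5.73%, and the nuclear RNA Malat1 was at 3738 CPM, against 56.5 to 128 CPM. Of all genes tested, 3.44% were called at an adjusted p under 0.05 and 2.37% were called lower in Cyr61 KO; 31.0% of the 467 calls were higher, against 54% of the 50 calls with library totals in place of TMM factors.

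Hspa1a and Hspa1b, the stress-inducible cytosolic HSP70 genes, were the 2 of 10 heat shock genes that edgeR called lower in Cyr61 KO. Of all genes, 2.37% were called lower, and no heat shock gene was called higher. Hspa8, Hsp90aa1 and Dnajb1 were also lower without overlap, as 17.9% of all genes were, but edgeR did not call them. Hspa1a was at 5.65, 20.8 and 9.22 CPM in the control libraries and at 0.713, 1.77 and 1.35 CPM in the Cyr61 KO libraries. Every Cyr61 KO library lay below every control library, and the control libraries spread widely, with control 2 highest. The control mean was 11.9 ± 7.94 CPM (SD, n = 3), the Cyr61 KO mean was 1.28 ± 0.534 CPM (SD, n = 3) or 10.7% of it, and the log2 fold change was -3.22 (SE 0.55, edgeR adjusted p = 0.0272). These values rest on few reads: 201, 605 and 298 in control and 24, 50 and 48 in Cyr61 KO.

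Hspa1b, which encodes nearly the same protein, was at 37.7, 38.7 and 64.0 CPM in control and at 7.43, 10.9 and 13.7 CPM in Cyr61 KO. The groups did not overlap, and the highest Cyr61 KO library was well below the lowest control library. Control averaged 46.8 ± 14.9 CPM (SD, n = 3) and Cyr61 KO 10.7 ± 3.12 CPM (SD, n = 3), or 22.8% of control, with a log2 fold change of -2.13 (SE 0.31, edgeR adjusted p = 0.0184). In bulk tissue, fewer cells of a type that express these genes and less RNA per cell cannot be told apart.

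**Figure D1:**
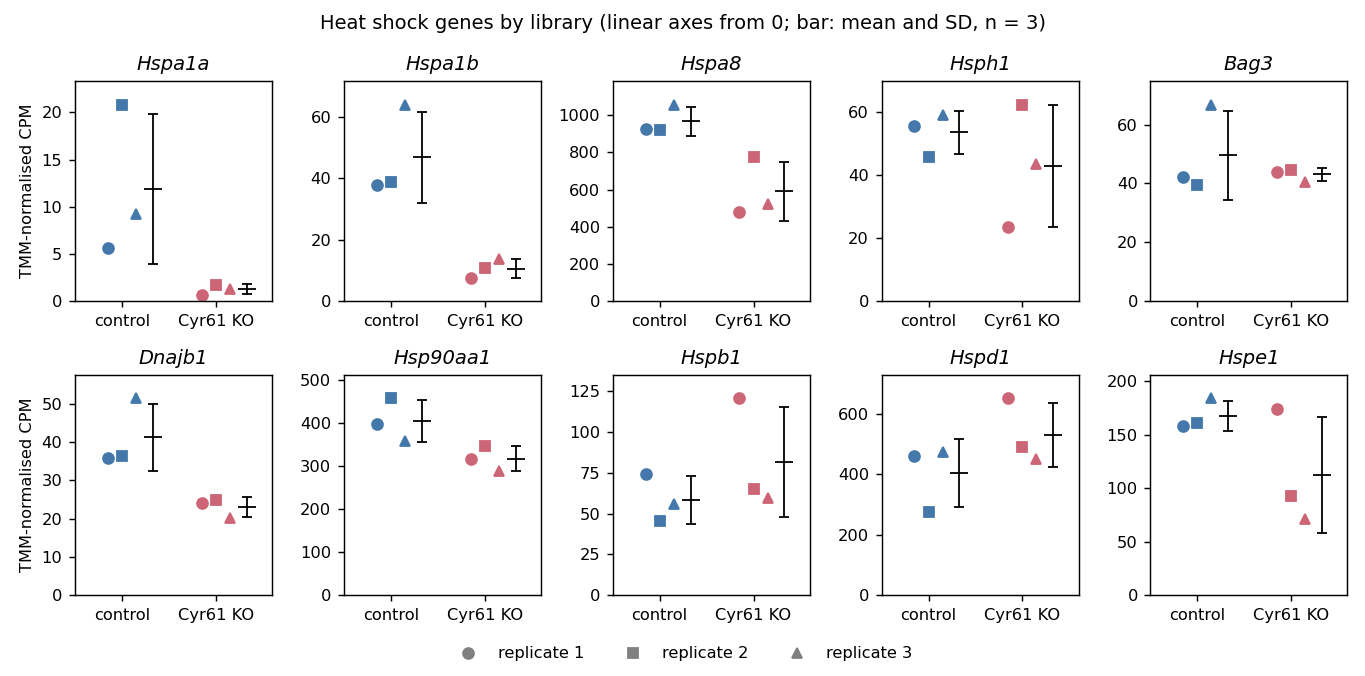
TMM-normalised CPM (linear y axes, each from 0) of the 10 heat shock genes in the 3 control and 3 Cyr61 KO libraries; symbols give the replicate number and the bars the mean and SD (n = 3). Hspa1a and Hspa1b lie at 10.7% and 22.8% of the control mean, Hspa8, Hsp90aa1 and Dnajb1 are lower without overlap, and the other 5 genes overlap.

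Hspa1a (chr17:34969190-34972156, minus strand) and Hspa1b (chr17:34956436-34959238, minus strand) are neighbours on GRCm38, and their transcripts share long stretches. Of the 50-base stretches of the Hspa1a transcripts in GENCODE M21, 58.8% also occur in Hspa1b, and a read that maps to both is counted for neither. Their CPM therefore come from the parts that differ, and the split between them is uncertain. With the counts of both genes summed, the pair was at 43.4, 59.5 and 73.2 CPM in control and at 8.14, 12.7 and 15 CPM in Cyr61 KO. The summed pair fell, with a log2 change of -2.30 at an edgeR adjusted p of 0.0142 and no overlap between the groups. Reads that map to both genes are missing from this sum as well. The count ratio of Hspa1b to Hspa1a was 6.68, 1.86 and 6.94 in control and 10.4, 6.16 and 10.1 in Cyr61 KO, and these ranges overlapped (exact permutation test, two-sided p = 0.3, where 0.1 is the smallest that 3 against 3 allows). Control 2 was low in this ratio.

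The Hspa1a fold change was -2.52 without control 2 (edgeR adjusted p = 0.0402) and -2.20 by limma voom with quality weights (adjusted p = 0.00301). Leaving out Cyr61 KO 1 or Cyr61 KO 2 ended both calls, with adjusted p of 0.0904 and 0.101 for Hspa1a and 0.0739 and 0.100 for Hspa1b, while the log2 fold changes were -2.91 and -3.50 for Hspa1a and -1.92 and -2.14 for Hspa1b; of all genes, 7 and 24 were then called.

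Hspa8 (chr9:40800984-40810087, plus strand) encodes HSC70, the constitutive cytosolic HSP70, which folds new proteins and strips clathrin coats. It was at 927, 917 and 1055 CPM in control and at 479, 772 and 521 CPM in Cyr61 KO. The groups did not overlap, and Cyr61 KO 2 was nearest to the control libraries. Control averaged 967 ± 77.1 CPM (SD, n = 3) and Cyr61 KO 591 ± 158 CPM (SD, n = 3), and the log2 fold change of -0.71 (SE 0.30) did not pass in edgeR (adjusted p = 0.170) but passed in DESeq2 (-0.69, adjusted p = 0.0454). Counted per kb of exon, Hspa1a and Hspa1b made up 3.82%, 5.15% and 5.55% of the cytosolic HSP70 transcripts of these 3 genes in control and 1.42%, 1.38% and 2.39% in Cyr61 KO. This share, chosen after the values were seen, was lower in every Cyr61 KO library (exact permutation test, two-sided p = 0.1, the smallest possible).

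The partners of HSP70 did not pass the edgeR test. Dnajb1 (chr8:83608193-83612653, plus strand) encodes HSP40, which delivers clients to HSP70 and stimulates its ATPase. It was at 36.0, 36.4 and 51.5 CPM in control and at 24.1, 25.0 and 20.1 CPM in Cyr61 KO, without overlap and with little spread in Cyr61 KO. Control averaged 41.3 ± 8.84 CPM (SD, n = 3) and Cyr61 KO 23.0 ± 2.59 CPM (SD, n = 3), and the log2 fold change was -0.84 (SE 0.22, edgeR adjusted p = 0.0678). DESeq2 and limma voom called Dnajb1 lower, with adjusted p of 0.0144 and 0.00845.

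Hsph1 (chr5:149614287-149636376, minus strand) encodes HSP110, which exchanges the nucleotide of HSP70. It was at 55.6, 45.7 and 59.0 CPM in control and at 23.4, 62.0 and 43.4 CPM in Cyr61 KO, with a log2 fold change of -0.32 (SE 0.33, edgeR adjusted p = 0.553). The Cyr61 KO libraries held both the lowest and the highest value of all 6. Bag3 (chr7:128523616-128546981, plus strand) encodes an HSP70 co-chaperone that directs clients to autophagy. It was at 42.2, 39.6 and 66.8 CPM in control and at 44.0, 44.7 and 40.6 CPM in Cyr61 KO, with a log2 fold change of -0.20 (SE 0.24, edgeR adjusted p = 0.605). Control 3 alone was high, and without it the log2 fold change was 0.089.

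Hsp90aa1 (chr12:110690605-110702728, minus strand), the inducible cytosolic HSP90 that matures kinases and steroid receptors, was at 397, 456 and 358 CPM in control and at 317, 346 and 288 CPM in Cyr61 KO. The groups did not overlap, but they lay close, and the log2 fold change of -0.35 (SE 0.25) did not pass (edgeR adjusted p = 0.384). Hspb1 (chr5:135887919-135889563, plus strand) encodes the small heat shock protein HSP25, which holds unfolding proteins and binds actin. It was at 74.6, 45.4 and 55.7 CPM in control and at 121, 65.1 and 59.4 CPM in Cyr61 KO, with a log2 fold change of 0.48 (SE 0.32, edgeR adjusted p = 0.349). The groups overlapped, and Cyr61 KO 1 was highest.

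Hspd1 (chr1:55077835-55088243, minus strand) and Hspe1 (chr1:55088132-55091307, plus strand) encode HSP60 and HSP10, the barrel and the lid of the mitochondrial chaperonin. They lie head to head and overlap at their 5′ ends in GENCODE M21. Hspd1 was at 462, 276 and 476 CPM in control and at 652, 492 and 451 CPM in Cyr61 KO, with a log2 fold change of 0.39 (SE 0.31, edgeR adjusted p = 0.438). The groups overlapped, with control 2 lowest. Hspe1 was at 158, 161 and 184 CPM in control and at 174, 92.5 and 71.0 CPM in Cyr61 KO, with a log2 fold change of -0.57 (SE 0.34, edgeR adjusted p = 0.295). Cyr61 KO 1 lay among the control libraries and the other Cyr61 KO libraries below them. Only limma voom called Hspe1, at -0.82 (adjusted p = 0.0132).

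Per kb of exon, the ratio of Hspd1 to Hspe1 was 0.936, 0.548 and 0.826 in control and 1.20, 1.70 and 2.03 in Cyr61 KO. The ratio was under 1 in every control library and above 1 in every Cyr61 KO library (exact permutation test, two-sided p = 0.1, the smallest possible). It was chosen after the values were seen. Of the 50-base stretches of their transcripts, 42.1% in Hspd1 and 44.8% in Hspe1 also occur in transcripts of other genes. The largest overlap was with Hspd1-ps3 for Hspd1 (38.0%) and with AC117239.2 for Hspe1 (35.2%). In control 2, 19.4% of reads mapped to several places. The part of lost shared reads in the ratio was not tested.

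**Figure D2:**
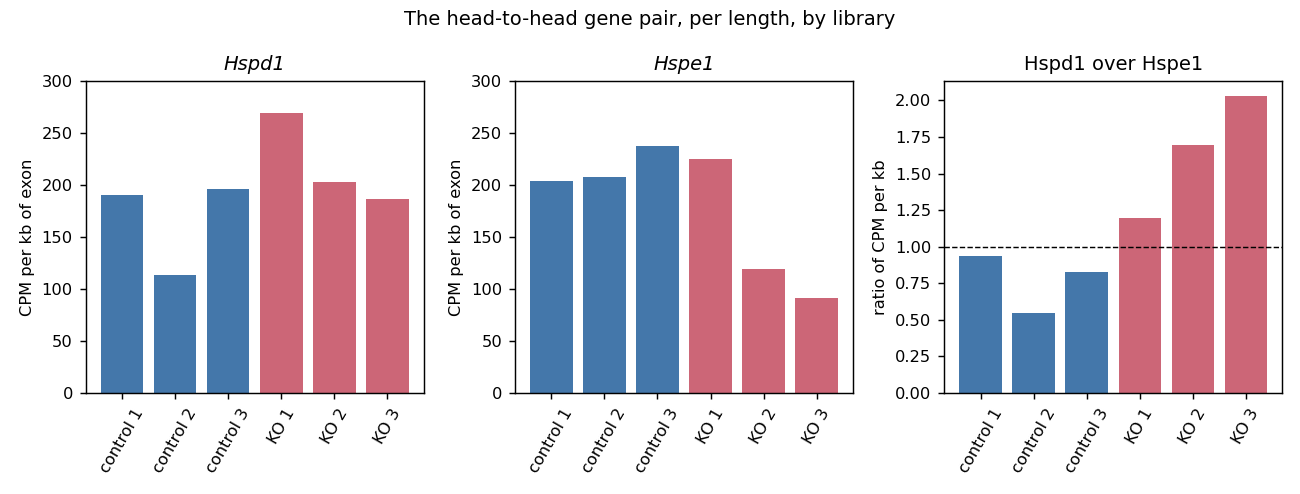
Level per kb of exon (CPM per kb, linear axes from 0) of Hspd1 and Hspe1 in each library, and the ratio between them, with a dashed line at 1. The ratio is 0.548 to 0.936 in control and 1.20 to 2.03 in Cyr61 KO, while the levels of each gene overlap between the groups.

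Across the 10 genes, 2 were called lower by edgeR, where 2.37% of all genes were called lower. At an unadjusted p under 0.05, 4 were lower, against 16.1% of all genes. DESeq2 called 4 lower (Dnajb1, Hspa1a, Hspa1b and Hspa8), against 10.2% of all genes, and limma voom called 4 lower (Dnajb1, Hspa1a, Hspa1b and Hspe1), against 17.8%. In 5 genes (Hspa1a, Hspa1b, Hspa8, Hsp90aa1 and Dnajb1) the Cyr61 KO libraries were lower without overlap, against 17.9% of all genes. None was higher without overlap, against 17.3% of all genes. The fold change was negative in 8 genes and positive in 2, with a median of -0.46 log2 against -0.03 over all genes tested. With library totals in place of TMM these medians were -0.77 and -0.30, and the same numbers of genes were negative and positive.

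**Figure D3:**
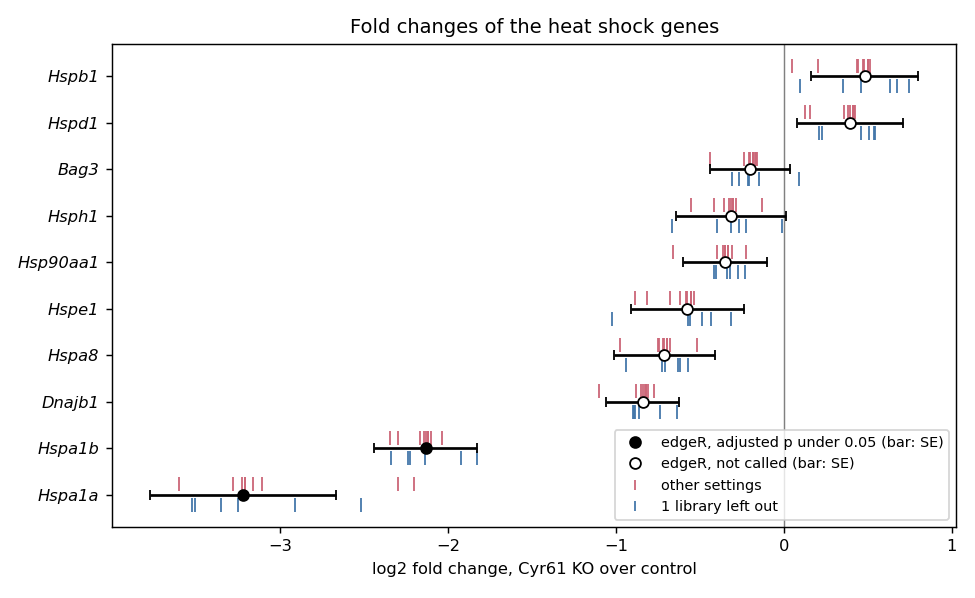
Log2 fold change, Cyr61 KO over control, of the 10 genes (circles, bars SE; filled where called by edgeR), with ticks for the other settings and for each library left out. Hspa1a and Hspa1b stay below -1.8 in every setting shown, and Bag3 crosses 0 when control 3 is left out.

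The genes differed widely in level. Per kb of exon and averaged over the 6 libraries, Hspa8 was highest at 325 CPM per kb, followed by Hspd1 at 193, Hspe1 at 181, Hsp90aa1 at 107 and Hspb1 at 68.0 CPM per kb. Bag3 at 18.1, Hsph1 at 11.4, Hspa1b at 10.2, Dnajb1 at 10.03 and Hspa1a at 2.22 CPM per kb were lower. Hspa8 was above Hspd1 in 5 of 6 libraries, all but Cyr61 KO 1. Hsp90aa1 was above Hspb1 in 5 of 6 libraries, again all but Cyr61 KO 1. In 3 pairs of neighbours the order followed the group: Hspe1 was above Hspd1, and Hspa1b above both Hsph1 and Dnajb1, in all 3 control libraries, and each of these orders was reversed in all 3 Cyr61 KO libraries. Hspa1b averaged 16.7 CPM per kb in control and 3.81 in Cyr61 KO, where Dnajb1 averaged 12.9 and 7.19 CPM per kb. Levels of genes that share reads with other genes, such as Hspa8 with 68.8% of its 50-base stretches found elsewhere, may be understated. For Hspa1b this share was 62.3%, against 0% for Hsph1 and 0.412% for Dnajb1. The order of Hspa1b against Hsph1 and Dnajb1 may therefore depend on lost shared reads, which was not tested. In control 1 Hspa1b and Hsph1 also lay close, at 13.5 and 13.2 CPM per kb.

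Other chaperone genes were listed by role, and 78 of 87 listed genes were tested. None was called by edgeR, against 3.44% of all genes. At an unadjusted p under 0.05, 6 were higher and 8 lower, against 27.4% of all genes in either direction. DESeq2 called 4 higher and 3 lower, against 16.8% of all genes, and limma voom 8 higher and 7 lower, against 33.1%. Their median log2 fold change was 0.08. With library totals, the positive medians turned negative for the other HSP70 family genes (-0.10), the exchange and release factors (-0.13), the HSP90 list (-0.20) and TRiC (-0.18), while that of the mitochondrial list was 0.18. The median over all genes tested was then -0.30, below each of these list medians. Of the regulators of heat shock factors, 6 were tested, with a median of -0.22. Hsf1 itself, named after its values were seen, was at 17.8, 21.7 and 16.7 CPM in control and at 16.4, 19.97 and 18.7 CPM in Cyr61 KO (log2 fold change -0.03, SE 0.20, edgeR adjusted p = 0.934). These ranges lay over each other. Hsf2bp, which encodes a binding partner of HSF2 and was also named after its values were seen, was at 6.80, 5.23 and 7.98 CPM in control and at 2.14, 1.10 and 2.80 CPM in Cyr61 KO. Its groups did not overlap, and its log2 fold change of -1.72 (SE 0.40) was the largest in this list. It did not pass in edgeR (adjusted p = 0.0525) but passed in DESeq2 (adjusted p = 0.000989) and limma voom (adjusted p = 0.00107).

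Hsbp1, which binds HSF1 trimers, had a log2 fold change of -0.56 (adjusted p = 0.119 by edgeR), and the heat shock factor Hsf2 one of -0.04 (adjusted p = 0.925). Limma voom called Hsbp1 lower (adjusted p = 0.0109), and DESeq2 did not (adjusted p = 0.0535). The other HSP70 family genes (7 tested, median 0.17) included Hspa4, an HSP110 relative, at 0.30 (edgeR adjusted p = 0.469), and Hspa13, an HSP70 of the microsomes, at 0.40 (adjusted p = 0.393). The HSP40 genes (15 tested, median -0.02) included the cytosolic Dnaja1 at -0.30 (edgeR adjusted p = 0.509) and Dnaja2 at 0.10 (adjusted p = 0.790). None of these lists held a gene called by edgeR.

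Factors that exchange nucleotide on HSP70 or release it (8 tested, median 0.16) included St13, which binds ADP-bound HSP70, at 0.47 (edgeR adjusted p = 0.308) and the exchange factor Bag1 at -0.01 (adjusted p = 0.992). HSP90 genes and co-chaperones (16 tested, median 0.03) included Hsp90ab1, the constitutive cytosolic HSP90, at -0.03 (edgeR adjusted p = 0.952) and Fkbp8, an HSP90-binding immunophilin, at 0.17 (adjusted p = 0.799). The cytosolic chaperonin TRiC (8 tested, median 0.07), which folds actin and tubulin, spanned -0.11 to 0.23, with Cct5 at 0.09 (edgeR adjusted p = 0.863) and Cct8 at 0.23 (adjusted p = 0.537). The TRiC genes thus had the narrowest range of the lists with more than 2 genes.

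Small heat shock protein genes (4 tested, median -0.999) went both ways: Hspb8 was at -0.21 (edgeR adjusted p = 0.657) and Hspb6 at 1.09 (adjusted p = 0.0924). DESeq2 and limma voom called Hspb6 higher, with adjusted p of 0.0259 and 0.00185. Cryab, which encodes αB-crystallin and was named after its values were seen, was at 7.89, 26.6 and 7.58 CPM in control and at 2.94, 4.61 and 4.598 CPM in Cyr61 KO (-1.79, edgeR adjusted p = 0.0783). It was lower in Cyr61 KO without overlap, with control 2 far above the other control libraries. DESeq2 and limma voom called Cryab lower, with adjusted p of 0.00655 and 0.0227. Hspb2, also named after its values were seen, was at -1.96 (edgeR adjusted p = 0.137), on 4 to 60 reads per library. Its groups did not overlap. DESeq2 did not call it (adjusted p = 0.0899), but limma voom did (adjusted p = 0.0188). Of the cold-inducible RNA-binding genes, Rbm3 was at -0.98 (edgeR adjusted p = 0.0828) and Cirbp at 0.34 (adjusted p = 0.537). DESeq2 called Rbm3 lower (adjusted p = 0.0260), and limma voom did not (adjusted p = 0.103).

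Mitochondrial chaperones and proteases (14 tested, median 0.42) had positive fold changes in 11 genes (9 with library totals), with none called by edgeR. Hspa9, the mitochondrial HSP70, had a log2 fold change of 0.64 (adjusted p = 0.255 by edgeR), and Clpx, the unfoldase of a matrix protease, one of 1.11 (adjusted p = 0.117). DESeq2 called Clpx higher (adjusted p = 0.0239), and limma voom did not (adjusted p = 0.0566). The summed CPM of the mitochondrial list was 974 to 1852 in control and 2018 to 2627 in Cyr61 KO, with control 2 lowest. The 8 hepatocyte markers summed to 41929 to 106159 CPM in control, control 2 lowest, and to 108636 to 135952 CPM in Cyr61 KO. The part of the hepatocyte share in the mitochondrial list was not tested.

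**Figure D4:**
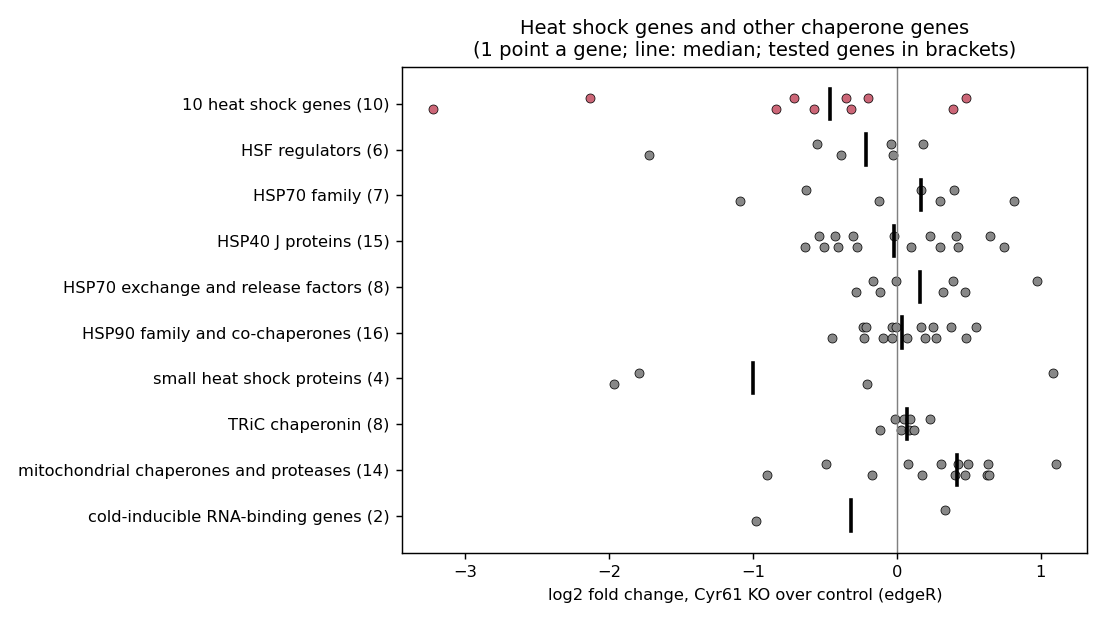
Log2 fold change (edgeR), Cyr61 KO over control, of each tested gene by role list (1 point a gene, line at the median, tested genes in brackets). The 10 heat shock genes have a median of -0.46, TRiC lies between -0.11 and 0.23, and the mitochondrial list has a median of 0.42.

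Markers of other cells moved in the same comparison. Here and for the gene lists below, fell and rose mean called by edgeR, which called 322 of 13563 genes lower and 145 higher. Of all genes, 16.1% were lower at an unadjusted edgeR p under 0.05, and 27.4% passed it in either direction. DESeq2 called 10.2% lower and 16.8% in either direction, and limma voom 17.8% and 33.1%. Of macrophage markers, 4 of 10 fell (summed 361 to 645 CPM in control, 119 to 296 CPM in Cyr61 KO), and of stellate cell markers 4 of 7 fell (498 to 952 against 181 to 260 CPM). Neutrophil markers fell in 2 of 4 (15.4 to 66.0 against 2.41 to 6.73 CPM) and B and plasma cell markers in 1 of 5 (13.0 to 56.7 against 4.43 to 5.07 CPM, Mzb1 at 0 in at least 1 library). Of Kupffer, T and NK, and cholangiocyte markers none was called by edgeR; at an unadjusted p under 0.05 these counts were 1 of 5 higher, 6 of 7 lower and 5 of 6 lower, DESeq2 called 1 higher, 5 lower and 3 lower, and limma voom 1 higher and 2 lower, 3 lower, and 4 lower. Their sums were 380 to 521 against 180 to 523 CPM for Kupffer cells, 7.95 to 70.4 against 4.04 to 5.33 CPM for T and NK cells, and 233 to 1365 against 80.5 to 157 CPM for cholangiocytes. Control 2 alone gave the upper end for several lists: the other control libraries summed to 7.95 and 12.2 CPM for T and NK cells, 13.0 and 17.8 CPM for B and plasma cells, 15.4 and 25.2 CPM for neutrophils, 233 and 271 CPM for cholangiocytes, and 498 and 582 CPM for stellate cells. Endothelial markers rose in 2 of 6 (107 to 172 against 156 to 228 CPM) and hepatocyte markers in 1 of 8.

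Immediate early genes, which respond to stress and handling within minutes, fell in 4 of 8 tested (Jun, Junb, Egr1 and Atf3). The 8 genes and the untested Fosb summed to 296 to 500 CPM in control and 128 to 165 CPM in Cyr61 KO. Of 10 ribosomal protein genes, 1 fell and all had negative fold changes (median -0.70, summed 3989 to 4933 against 2072 to 3556 CPM). Among 13 clock genes, edgeR called Npas2 higher by 1.74 and Per1 lower by 1.78 on the log2 scale. Without overlap, 5 were higher and 1 was lower, against 17.3% and 17.9% of all genes. DESeq2 called 5 higher and 1 lower, against 16.8% of all genes in either direction. With limma voom 4 were higher and 1 lower, against 33.1%. Their sum, with the untested Ciart (at 0 in at least 1 library), was 278 to 406 against 258 to 477 CPM. It joins genes that moved in opposite directions. The part of cell makeup, tissue handling, RNA quality and time of day in the lower Hspa1a and Hspa1b was not tested. Both Hspa1a and Hspa1b were called without control 2, and neither was called without Cyr61 KO 1 or without Cyr61 KO 2.

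The pattern of the summed Hspa1a and Hspa1b over the 6 libraries was compared with 11926 tested genes, by the root mean square distance of centred log2 CPM. These had a mean of at least 1 CPM, and the heat shock genes and gene models (names with Gm or Rik) were left out. Nearest were St8sia3 (0.289), Areg (0.327), Arhgap44 (0.358), Lnx1 (0.368) and Pls1 (0.370). Reads were few, with 5 to 70 per library for St8sia3 and 7 to 77 for Areg. Areg, an EGF receptor ligand, was at 2.16, 1.76 and 2.07 CPM in control and at 0.208, 0.248 and 0.421 CPM in Cyr61 KO. Since these genes were chosen for their likeness to a pair that was lower in Cyr61 KO, their own difference between the groups is a description and was given no test. Among the heat shock genes, Dnajb1 (0.819, rank 1017) and Hspa8 (0.842, rank 1158) came nearest to the pair. The distance was not scaled, so a gene with a small fold change lies far from the pair whatever its pattern.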

How the data were processed

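Reads per gene were deposited by the authors as whole-number counts, 1 table per library, with unstranded and strand-specific columns. The reverse-strand counts were used because the kit is directional per the labels; the opposite strand held 0.928% to 1.35%. The submitters' processing notes name Trimmomatic 0.38, STAR 2.6.1a and the builds hg38 and mm10; the sources used here do not give annotation or settings. Reads that were unmapped, mapped to several places, lay outside genes or were ambiguous (12.4% to 49.1% per library) stayed out. Matched by gene symbol, the deposited table of the whole series equals the unstranded counts in 99.9% of 146466 values.

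Counts were fitted in R 4.3.3 with edgeR 4.0.16 (filterByExpr with a minimum count of 10 and total of 15, TMM, quasi-likelihood test, group term only), and p-values were adjusted by Benjamini-Hochberg over 13563 genes, called under 0.05. The SE was taken as the size of the log2 fold change divided by the root of its F statistic. Alternatives were DESeq2 1.42.0, limma 3.58.1 voom with quality weights, unstranded counts, other scalings and filters, the replicate number as a block, leaving out each library, and summing Hspa1a and Hspa1b. The fit was tested on simulated data. Exact permutation tests compared ratios.

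Positions and exon lengths are those of GENCODE M21 (GRCm38, which mm10 also is); the authors' annotation may differ. Named were all 10 genes; in each role list the called genes, or the 2 with the highest mean CPM where none was called; the 5 genes nearest to summed Hspa1a and Hspa1b; and Cyr61, Malat1 and Alb. Members and lists were chosen with earlier results of these data known. Groups come from the labels; the listed chaperone Hikeshi and the neutrophil marker Ly6g matched no symbol.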

Additional observations from a re-analysis of the deposited data

How the results depend on the processing

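The count of called heat shock genes, 2 by edgeR, was 4 with DESeq2, 4 with limma voom, 1 with library totals in place of TMM (Hspa1b; Hspa1a at adjusted p = 0.0711) and 0 to 2 when 1 library was left out, with 0 without Cyr61 KO 1 or Cyr61 KO 2; it was 2 in all other settings. The count of other called chaperone genes, 0 by edgeR, was 7 with DESeq2, 15 with limma voom, 3 without a filter on low counts, 2 with the replicate block and 0 to 1 when 1 library was left out. Over all genes, 467 were called in edgeR, 2273 with DESeq2, 4483 with limma voom, 50 with library totals, 944 without a filter and 7 to 878 when 1 library was left out. Library totals moved the median over all genes from -0.03 to -0.30 log2 and the share of higher calls from 31.0% to 54%. Of 150 alternative values for the fold changes of the 10 genes, 140 kept their direction and side of the threshold, 5 lost the call, 4 gained one, and Bag3 turned to 0.089 without control 3 (-0.31 to 0.089 over the libraries left out); the cause was not tested. The deviations of same-numbered libraries had r across genes of -0.06, -0.24 and -0.45, and those of differently numbered libraries -0.19 to 0.36. Deviations centred within each group are not independent of each other, so these values cannot decide whether the numbers pair the samples. With the replicate block 2 heat shock genes and 633 genes in all were called. Hspa1a had the largest SE of the 10 genes, with 24 to 50 reads in Cyr61 KO and a wide spread in control.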
